A study of Mus musculus with 12 samples.

Results

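The DNA damage checkpoint of the oocyte was followed through its 8 core genes, Trp63, Trp53, Chek1, Chek2, Atm, Atr, Brca1 and Brca2, selected by gene symbol and not by any measured value. All 8 were found among the 56691 gene rows of the count matrix. RNA of mouse oocytes had been sequenced in 12 libraries, 2 for each combination of genotype and stage. The genotypes were wild type (WT) and Alkbh5-/- (KO), which lacks the enzyme that removes N6-methyladenosine (m6A) from RNA, and the stages were the germinal vesicle stage (GV), germinal vesicle breakdown (GVBD) and metaphase II (MII). By the study's methods all mice were C57BL/6, and oocytes came from 3-week-old females primed with gonadotropin, were freed of cumulus cells by pipetting, and matured in culture in M16 medium. The knockout was made by CRISPR-Cas9 removal of exon 1 in the whole animal, so the ovary around the oocyte lacked the enzyme as well. Stages were set by time in culture. The study reports that most KO oocytes in culture stayed at GV and that few extruded a polar body. Whether KO oocytes were also picked by their visible stage is not given in the sources used here. Genotype and the stage actually reached thus cannot be told apart in the KO GVBD and KO MII libraries. Each library was a pool of oocytes. The study calls the pools of a group biologically independent without naming separate animals, so p-values measure the spread between these libraries, part of which may be technical.

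ATM and ATR are the kinases that sense broken DNA and stalled replication forks. ATM acts mainly through CHK2 (Chek2) and ATR mainly through CHK1 (Chek1), and both effector kinases restrain the cell cycle and pass the signal to the p53 family. In resting oocytes of the follicle reserve, CHK2 phosphorylates TAp63, the long form of the Trp63 product, which then drives the death of damaged oocytes, while p53 (Trp53) also takes part. BRCA1 and BRCA2 act in the repair of broken DNA by homologous recombination, and in fully grown oocytes CHK1 can hold CDK1 in check at the GV stage.

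Library totals ran from 28.6 to 40.2 in units of 1e6 counts, of which 0.777% to 2.08% fell on ERCC spike-ins, synthetic RNAs added to each pool. A level below is a scaled count, which is the deposited count multiplied by the mean spike-in sum over the library's own, and a level per kilobase (kb) divides it by the length of the longest protein-coding transcript. Fewer oocytes in a pool and less RNA per oocyte cannot be told apart on this scale. Alkbh5 had 5355 to 10181 counts in the 6 WT libraries and 54 to 143 in the 6 KO libraries. All 12 oocyte markers had at least 10 counts in every library. So had 4 of 13 markers of cumulus and granulosa cells, 1 of 5 of theca and stroma and 3 of 5 of blood. The 4 of cumulus and granulosa cells were Cyp19a1 (577 to 2225 counts), Nr5a2 (292 to 480), Kitl (73 to 263) and Fshr (17 to 221). Of those 13, only the receptor gene Amhr2 was at 0 in all 12 libraries. Amh was at 0 in 11, Foxl2 in 10, and Tnfaip6 and Hsd17b1 in 9 each.

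The m6A mark that ALKBH5 removes sits mostly within short motifs around the letters GGACT, which is why the match nearest the stop codon is shown for each member. Read from GENCODE M21 (GRCm38) on the transcript strand only, 5′ to 3′, with GGACT in capitals, the windows of 25 bases were the following.
Trp63: catcatgcctGGACTatttcacgac
Chek1: attccaatttGGACTtttctccagt
Chek2: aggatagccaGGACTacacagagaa
Atm: ctctttgattGGACTatgaatcctt
Atr: gcagttcttgGGACTttattaaatt
Brca1: ttgtgatgtgGGACTgggtgttgga
Brca2: agtctctcagGGACTgtagaggcga

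These windows lie at chr16:25886229-25886253 (+ strand, exon 13 of 14) for Trp63, chr9:36714440-36714464 (- strand, exon 8 of 12) for Chek1, chr5:110873765-110873789 (+ strand, exon 15 of 15) for Chek2, chr9:53440125-53440149 (- strand, exon 61 of 62) for Atm, chr9:95874146-95874170 (+ strand, exon 11 of 47) for Atr, chr11:101489861-101489885 (- strand, exon 23 of 23) for Brca1, chr5:150569456-150569480 (+ strand, exon 27 of 27) for Brca2. The Chek2 window is 211 bases past the stop codon and the other 6 are in coding sequence. GGACT occurred 8 times in the transcripts of Atm and Brca1, 6 times in Chek2, 5 in Brca2, 4 in Trp63, 3 in Atr and 2 in Chek1, and these letters were not in the Trp53 transcript used. A match was thus held by 7 of 8 members and by 91.3% of the 14113 protein-coding genes averaging 10 counts or more. Per kb, Chek2 had 2.64 matches and Chek1 0.527, against a median of 1.03 over those genes. A match is only a match of letters, since methylation was not measured in these libraries.

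Chek1 was by far the most abundant of the 8 transcripts in every library (plot of level per kb). It had between 38559 and 125169 counts, 0.130% to 0.321% of all endogenous counts of a library, and took 195th place in mean level per kb among 14113 protein-coding genes. Of the summed level per kb of the 8 genes, Chek1 alone made up 90.5% to 95.2%. Its mean level per kb was 18732 ± 3358 (SD over 12 libraries), 46.2 times that of Brca1, the next in order.

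**Figure D1:**
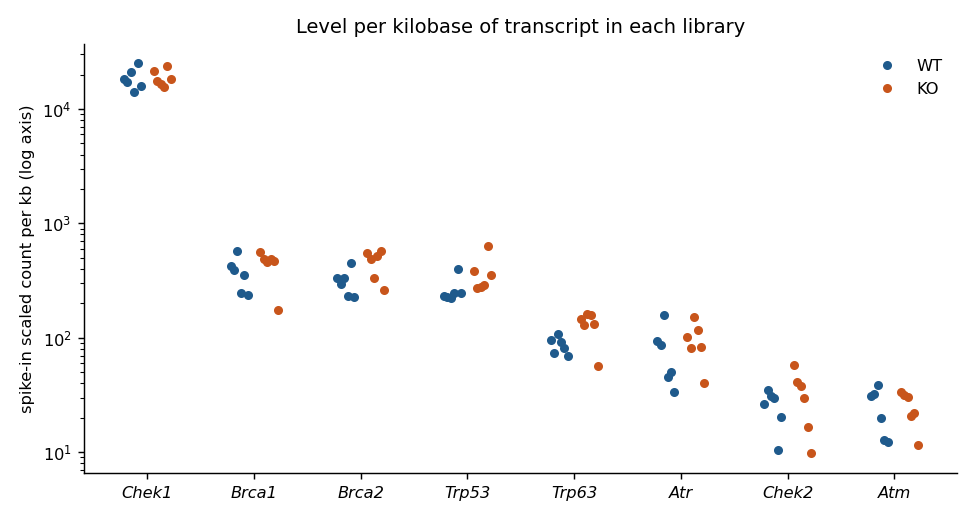
Spike-in scaled count per kb of transcript on a log axis for the 8 genes in order of their mean, with 1 point for each of the 6 WT (blue) and 6 KO (orange) libraries, drawn from GV to MII within a genotype. Chek1 lies between 14216 and 25005 in all libraries, and no library of another gene exceeds 641.

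Behind Chek1 came a tier of Brca1 (406 ± 129 per kb), Brca2 (384 ± 127) and Trp53 (316 ± 119). These 3 did not separate beyond their spread, since Brca1 exceeded Brca2 in 7 of 12 libraries and Brca2 exceeded Trp53 in 8. Dividing by the length of all merged exons set Trp53 further behind, at a mean of 146 per kb beside 313 for Brca1 and 302 for Brca2. A lower tier held Trp63 (109 ± 36.2 per kb) and Atr (86.9 ± 41.1), with Trp63 ahead in 10 of 12 libraries. With merged exons their means were 69.5 and 29.8 per kb. Every library had more Trp53 than Trp63 per kb. By transcript length the ranges of these 2 genes did not overlap, while by merged exon length they overlapped slightly. Chek2 (28.9 ± 13.8 per kb) and Atm (24.7 ± 9.37) were lowest, with Chek2 ahead in 7 of 12 libraries, and their places swapped when the length of all merged exons was used. Chek2 rested on only 30 to 95 counts a library and Atm on 156 to 283, so their values are the least precise of the set.

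The level of each gene relative to its partner does not depend on the scaling between libraries. Per kb, the effector kinase of the ATR branch exceeded that of the ATM branch by far, with a Chek1 to Chek2 ratio between 371 and 2378 and a median of 599. The sensor kinases differed far less, and the Atr to Atm ratio was between 2.29 and 5.58. Its size rests on the length used, since by merged exons the mean levels were closer, at 29.8 per kb for Atr and 23.5 for Atm. The ratio was highest in KO GVBD, at 4.98 and 5.58, above all of the other 10 libraries. Trp63 reached 0.325 and 0.413 of the Trp53 level per kb in WT GV and 0.202 and 0.279 in WT MII, and in KO 0.376 and 0.477 at GV against 0.160 and 0.205 at MII. The Brca2 to Brca1 ratio was 0.758 and 0.784 in WT GV, 0.978 and 1.01 in KO GV, 0.957 and 1.27 in WT MII, while KO MII had 1.22 and 1.51. In both genotypes, then, the MII libraries had less Trp63 per Trp53, more Brca2 per Brca1 and more Chek1 per Chek2 than the GV libraries, with no overlap. In WT the Atr to Atm ratio overlapped between these stages, at 2.71 and 3.02 at GV and 2.73 and 3.99 at MII. How many other pairs of genes separate in this way was not counted. These ratios are a description: within a genotype, 2 libraries against 2 allow an exact two-sided permutation p no smaller than 0.333, and no test was run.

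To ask whether loss of ALKBH5 changed the checkpoint genes, KO was compared with WT at each stage and, with a term for stage, over the 3 stages at once. A gene was called when the adjusted p of edgeR's quasi-likelihood test (Benjamini-Hochberg, across all genes in the fit) was below 0.05 and its log2 fold change was at least 1 in size. All 8 genes passed the filter on low counts in every comparison. None of the 8 was called at GV, where 0.0977% of 19452 tested genes were, at GVBD (2.54% of 19462), at MII (0.803% of 17566) or over all stages (1.26% of 22004). Without adjustment, 2 members had a p below 0.05 at GV (17.9% of all genes did), 0 at GVBD (14.9%), 0 at MII (7.32%) and 1 over all stages (18.8%). DESeq2 likewise called none in these comparisons. Over all genes it called 666 of 19452 at GV, 901 of 19462 at GVBD, 346 of 17566 at MII and 1356 of 22004 over all stages.

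**Figure D2:**
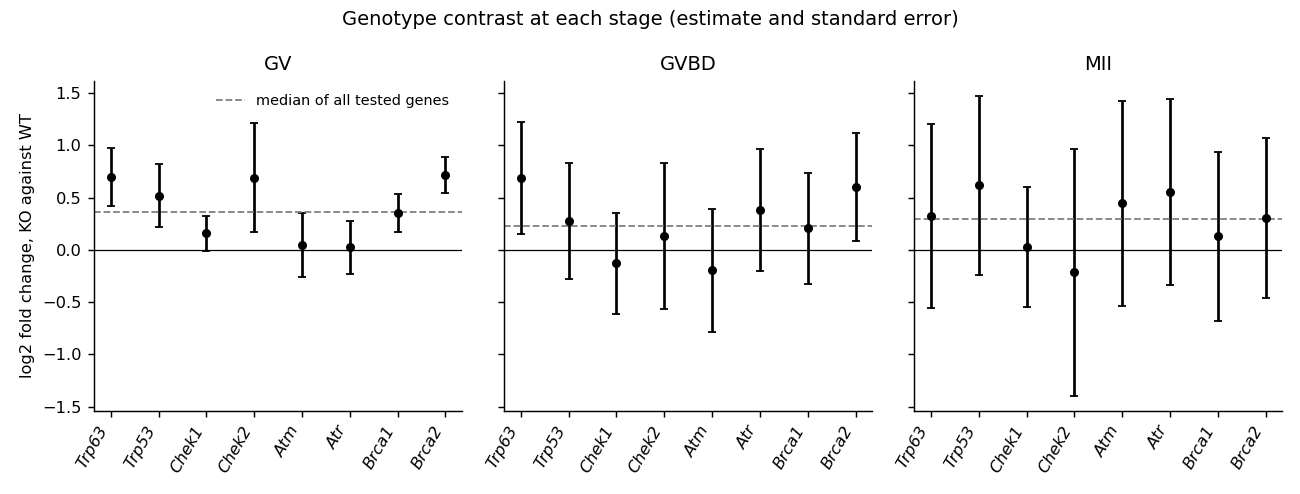
Log2 fold change of KO against WT for the 8 genes at GV, GVBD and MII, each point an edgeR estimate from 2 against 2 libraries and each bar its standard error; the dashed line is the median of all tested genes. Estimates for Trp63 and Brca2 at GV are 0.69 and 0.72, above the dashed line at 0.36, and bars widen towards MII.

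The median gene was itself 0.36 higher in KO at GV on the spike-in scale, 0.23 at GVBD and 0.30 at MII, so each estimate is best read against that shift. Under TMM scaling, which sets most genes level, these medians became 0.00, -0.04 and 0.00. The summed level of the 13 cumulus and granulosa markers was likewise higher in KO, at 1704 to 1782 in WT GV and 2418 to 2511 in KO GV, 1487 to 1903 and 2079 to 3588 at GVBD, and 907 to 1623 and 1926 to 2130 at MII. Within this list Cyp19a1 reached 2225 counts in a library and Nr5a2 480. Amh and Foxl2 reached at most 4 and 5. The summed level of the 5 theca and stroma markers was lower in KO at GVBD, at 1412 to 2721 in WT and 132 to 332 in KO, and overlapped at GV and MII. The summed level of the 5 blood markers differed far more at GVBD, at 52761 to 87322 in WT and 639 to 664 in KO. High sums of this list came from the haemoglobin genes Hba-a1 and Hbb-bs, which reached 64768 and 46309 counts in a library. The other members, Ptprc, Cd68 and Lyz2, reached at most 421, 413 and 1194. The part of these cell markers in the genotype results was not tested.

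Trp63 encodes the p63 family member that guards the oocyte pool, and gene counts do not separate its TAp63 from its ΔNp63 transcripts. Its levels in WT were 513 and 396 at GV, 582 and 489 at GVBD and finally 435 and 372 at MII. In KO they were 777 and 694 at GV, 872 and 855 at GVBD and finally 706 and 304 at MII. Both KO libraries exceeded both WT libraries at GV and at GVBD, whereas at MII 1 KO library was the highest and the other the lowest of the 4. The log2 fold change was 0.69 ± 0.28 (SE) at GV (edgeR adjusted p = 0.272), 0.69 ± 0.54 at GVBD (adjusted p = 0.600), and in the MII libraries 0.32 ± 0.88 with an adjusted p of 1. Over all stages it was 0.57 ± 0.26 (95% CI 0.01 to 1.13), with an unadjusted edgeR p of 0.0453 and an adjusted p of 0.254.

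**Figure D3:**
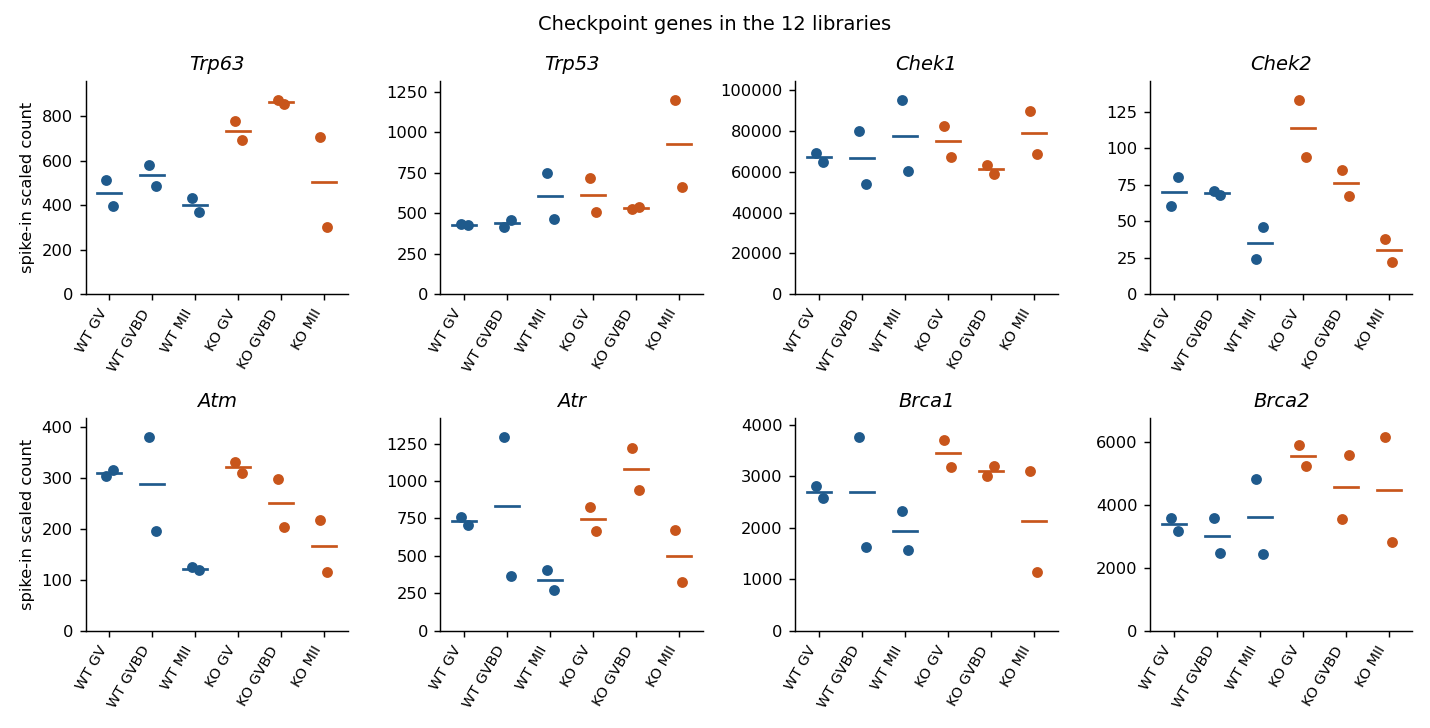
Spike-in scaled counts of the 8 genes, 1 panel a gene with its own axis from 0, in WT (blue) and KO (orange) at GV, GVBD and MII; points are libraries and lines group means of 2. The Trp63 points of KO GV and KO GVBD, 694 to 872, sit above those of WT at the same stages, 396 to 582, and the libraries of KO MII stand far apart.

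Trp53, whose product p53 is the general DNA damage transcription factor, was separated between the genotypes at GV, and at GVBD on the spike-in scale only. The WT levels were 432 and 424 at GV, 416 and 459 at GVBD and finally 749 and 463 at MII. Its KO levels were 719 and 506 at GV, 523 and 535 at GVBD and finally 1196 and 663 at MII. On this scale KO exceeded WT without overlap at GV and GVBD and overlapped it at MII. TMM-scaled counts overlapped at GVBD, at 286 and 481 in WT and 336 and 418 in KO, where the estimate turned to -0.05. On the spike-in scale the estimates were 0.52 ± 0.30, 0.28 ± 0.55 and 0.62 ± 0.85 at the 3 stages. Over all stages the difference was 0.47 ± 0.25 (95% CI -0.07 to 1.01, edgeR adjusted p = 0.331). A processed pseudogene, Trp53-ps, carried 24 to 114 counts a library, 5.95% to 14.7% of the Trp53 count, and reads shared between such copies make the level of either uncertain.

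Brca2 showed the smallest p of the 8 at GV. Its levels were 3595 and 3188 in WT GV and 5915 and 5229 in KO GV, a log2 fold change of 0.72 ± 0.17 (95% CI 0.29 to 1.14). The edgeR p was 0.00612 unadjusted and 0.164 adjusted, and under the alternatives tried the adjusted p ran from 0.00325 to 1. DESeq2 gave the smallest of these, with an estimate of 0.72 that stayed under the fold limit. At GVBD the libraries stood at 3580.5 and 2487 in WT and 3572 and 5606 in KO, and at MII at 4832 and 2444 in WT and 6163 and 2816 in KO. Both later stages overlapped between the genotypes, with estimates of 0.60 ± 0.52 and 0.30 ± 0.77. Brca1, which promotes the resection of broken ends, had 2811 and 2576 in WT GV and 3705 and 3186 in KO GV, an estimate of 0.35 ± 0.18 that lay on the median of all genes, and its genotypes overlapped on the TMM scale.

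Chek1, the ATR effector, had the estimate nearest 0 over all stages. In WT it stood at 69166 and 64901 at GV, 79823 and 53979 at GVBD and finally 94942 and 60322 at MII. The KO libraries held 82319 and 67326 at GV, 63404 and 58914 at GVBD and finally 89527 and 68897 at MII. The genotypes overlapped at every stage on the spike-in scale, and the estimate over all stages was 0.02 ± 0.21 with a 95% CI of -0.43 to 0.47 on the log2 scale, so a difference of 1 log2 unit lies outside the interval. Its estimate at GV, 0.16 ± 0.17, and that over all stages turned negative under TMM scaling, at -0.20 and -0.21. TMM-scaled counts of Chek1 lay wholly lower in KO at GV, at 47508 and 47909 against 57435 and 54246 in WT, and at GVBD, at 40757 and 46036 against 54999 and 56627. Chek2 gave 60.5 and 80.4 in WT GV and 133 and 94.4 in KO GV, without overlap on the spike-in scale though not on the TMM scale, and with an estimate of 0.69 ± 0.52 whose 95% CI ran from -0.59 to 1.96.

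Among the sensor kinases, Atm had 304 and 316 in WT GV and 331 and 310.0 in KO GV, and Atr 757 and 705 and 825 and 665. On this scale both overlapped between the genotypes, at estimates of 0.05 ± 0.31 for Atm and 0.03 ± 0.25 for Atr, below the median gene. Under TMM scaling the estimates turned to -0.30 and -0.33, and both KO GV libraries lay below both WT GV libraries for each gene. The Atr row shares exonic bases with the antisense genes Gm16794, which had 8 to 69 counts a library, and 1700065D16Rik, which had at most 12, and since the use of strand in counting is not given in the sources used here, reads of these pairs cannot be told apart. The 2 WT GVBD libraries disagreed most on Atr, at 1293 and 367, a ratio of 3.52, and on Brca1, at 3756 and 1630.3, a ratio of 2.30, and genotype estimates at GVBD carry that spread.

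Counting libraries instead of fitting them, on the spike-in scale both KO libraries lay above both WT libraries for 5 of the 8 genes at GV (Trp63, Trp53, Chek2, Brca1 and Brca2), where 42.2% of all tested genes did so. At GVBD this held for 2 (Trp63 and Trp53) against 30.3% of tested genes, and at MII for 0 against 22.1%. Both KO libraries lay below both WT libraries for 0 members at each stage, beside 10.3% of tested genes at MII, 17.9% at GVBD and 9.69% at GV. These counts turned on the scaling. On the TMM scale 3 members lay above WT at GV (Trp63, Trp53 and Brca2, beside 21.9% of tested genes) and 3 below (Chek1, Atm and Atr, beside 24.5%). At GVBD 1 lay above (Trp63, beside 25.3%) and 2 below (Chek1 and Atm, beside 27%), and at MII 2 lay above (Trp53 and Atr, beside 30%) and 0 below, where 23.9% did.

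The GV to MII transition is the time when the oocyte degrades a large share of its stored mRNA, and MII was compared with GV within each genotype. By the study's methods polyadenylated mRNA was reverse transcribed. For the transcripts it assayed, without a repeat, the study reports poly(A) tails shortening during WT maturation and this shortening being impaired in KO. The part of tail length in the stage and genotype results was not tested. The median gene had a log2 fold change of -1.06 in WT and -1.17 in KO on the spike-in scale. In WT, 74 genes were higher and 5747 lower at MII, together 30.9% of the 18816 tested, and in KO 1 was higher and 615 lower, 3.28% of 18777. None of the 8 members was called in either genotype by edgeR. In WT 2 members had an unadjusted p below 0.05, beside 39.1% of all genes, and in KO 0 did, beside 24.6%. TMM scaling turned the WT split to 1593 higher and 3053 lower and the KO split to 224 and 727, with the median gene at -0.14 in both. The summed level of the 5 blood markers also moved between stages, from 959 to 132922 in WT GV and 94545 to 143777 in KO GV to 439 to 740 in WT MII and 373 to 19931 in KO MII, and its part in the stage results was not tested.

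Set against the median gene, the WT estimates spread from -0.28 for Atm through 0.59 for Brca1 and 0.89 for Trp63 to 1.56 for Trp53. No test against the median was run. In WT, Atm had the lowest estimate, -1.34 ± 0.60 (edgeR adjusted p = 0.0727), and went from 304 and 316 at GV to 124 and 120 at MII. Atr went from 757 and 705 to 409 and 270.4 (-1.11 ± 0.53, adjusted p = 0.101), and Chek2 from 60.5 and 80.4 to 23.9 and 45.8 (-1.01 ± 0.87, adjusted p = 0.428). On the spike-in scale the MII libraries of these 3 genes and of Brca1 lay wholly below those of GV, as did 58% of tested genes. DESeq2, which called 29.3% of all genes here, called Atm (adjusted p = 0.0396) and Atr (adjusted p = 0.0429) lower, within alternative ranges of 0.0396 to 0.551 and 0.0300 to 0.692. Leaving out WT MII replicate 1 also gave 1 member call, Atr at -1.43 ± 0.28, beside 26.1% of all genes.

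Trp53, Chek1 and Brca2 had the estimates furthest above the median gene in WT. Trp53 had 432 and 424 at WT GV and 749 and 463 at WT MII, an estimate of 0.50 ± 0.53 that stood 1.56 above the median gene and at the 94.6th percentile of all tested genes. Both its MII libraries exceeded both GV libraries in WT, as 3.54% of tested genes did. Chek1 had an estimate of 0.21 ± 0.41 (88.6th percentile), Brca2 of 0.10 ± 0.47 (85.4th) and Trp63 of -0.17 ± 0.53 (76.5th). Their intervals on the spike-in scale all included 0, from -0.53 to 1.53 for Trp53 and -0.60 to 1.02 for Chek1.

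**Figure D4:**
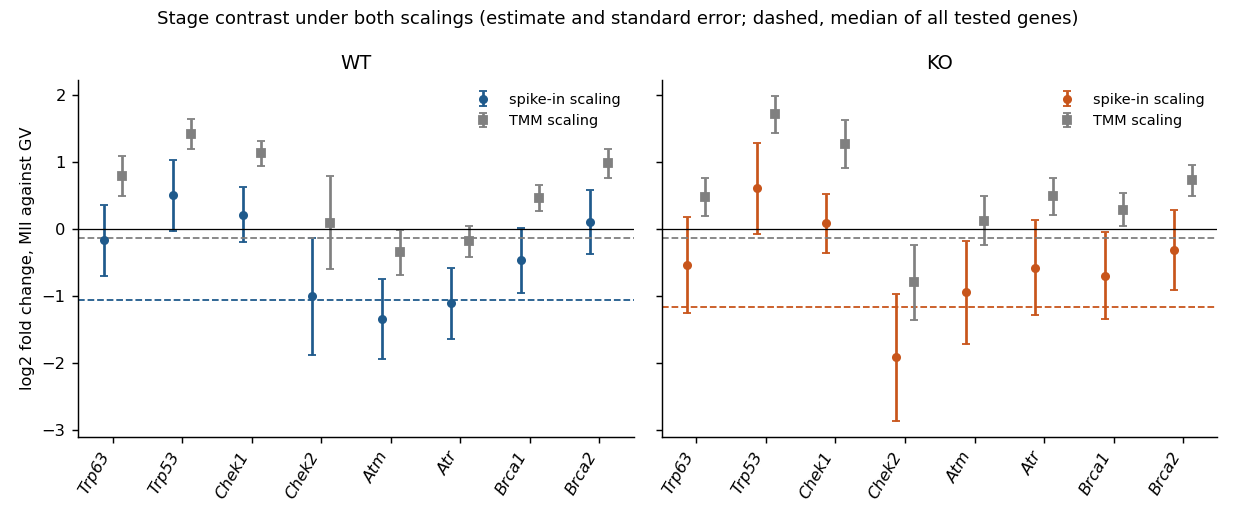
Log2 fold change of MII against GV for the 8 genes in WT (left) and KO (right) under spike-in scaling (coloured circles) and TMM scaling (grey squares), with standard errors; dashed lines are the medians of all tested genes under each scaling. Trp53 lies above both medians in both genotypes, at 0.50 and 0.60 on the spike-in scale and 1.41 and 1.71 on the TMM scale.

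On the TMM scale, where change is measured against the bulk of transcripts in the same library, Trp53 (1.41 ± 0.22, edgeR adjusted p = 0.00796) and Chek1 (1.13 ± 0.19, adjusted p = 0.0101) rose from GV to MII in WT, where TMM scaling called 24.7% of all genes. In KO, with 5.06% of all genes called, Trp53 rose (1.71 ± 0.27, adjusted p = 0.0404), and Chek1 gave 1.26 ± 0.35 with an adjusted p of 0.0812. Median-of-ratios scaling called 3 members in WT (Trp53, Chek1 and Brca2, beside 25.4% of all genes) and 1 in KO (Trp53, beside 4.82%). Over all alternatives the adjusted p ran from 0.00705 to 0.922 for Trp53 in WT, 0.00840 to 0.990 for Chek1 in WT and 0.0404 to 1 for Trp53 in KO. On the TMM scale 5 members lay wholly higher at MII in WT (29.6% of tested genes did) and 2 lower (38.7%), and in KO 6 lay higher (29%) and 1 lower (37.3%). For Trp53 and Chek1 the call thus turned on whether a transcript was counted against the spike-in or against the other transcripts.

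In KO, Chek2 had the lowest estimate, -1.91 ± 0.94 (edgeR adjusted p = 0.238), with 133 and 94.4 at GV and 38.0 and 22.2 at MII. Atm followed at -0.95 ± 0.77 and Brca1 at -0.70 ± 0.65, and these 3 genes had MII libraries wholly below GV, beside 61.4% of tested genes. Trp53 was highest at 0.60 ± 0.68, the 96.9th percentile of all tested genes, and Chek1 next at 0.08 ± 0.44, at percentile 89.1. Between these lay Atr at -0.58 ± 0.71, Trp63 at -0.54 ± 0.72 and Brca2 at -0.31 ± 0.59. Against the median gene Atr stood at 0.59 in KO and at -0.04 in WT.

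KO MII replicate 1 exceeded replicate 2 for all 8 genes, by 1.30 times for Chek1 to 2.71 times for Brca1, and it also had more endogenous counts per spike-in count, 87.9 against 54.7. Without it, 5 members were called lower at MII in KO: Brca1 at -1.59 ± 0.33, Chek2 at -2.35 ± 0.79, Trp63 at -1.27 ± 0.44, Atm at -1.48 ± 0.55 and Atr at -1.19 ± 0.44. That fit called 11075 genes in all, 54.2% of those tested, and rests on 1 KO MII library, which is assumed to vary as the others do. Leaving out KO MII replicate 2 instead gave 0 member calls.

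The difference between the genotypes in the GV to MII change was tested as an interaction. It called 0 of 20807 genes by edgeR, a background of 0%. Of these genes 1197 (5.75%) had an unadjusted p below 0.05, and DESeq2 called 154. No member had an unadjusted p under 0.05 and none was called by either tool. Estimates went from -0.91 ± 1.12 for Chek2 (95% CI -3.35 to 1.54) to 0.53 ± 0.77 for Atr (95% CI -1.16 to 2.22). Both intervals include differences of more than 1 log2 unit in either direction.

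From GV to GVBD none of the members was called in WT, where 0.0511% of 19566 genes were, or in KO, where 0.22% of 19064 were, and no member had an unadjusted p under 0.05 in edgeR or DESeq2, where edgeR gave such a p to 6.25% of all genes in WT and 7.65% in KO. In WT the estimates ran from -0.16 ± 0.37 for Brca2 to 0.24 ± 0.42 for Trp63, and for no member did the stages separate, as they did for 30.6% of tested genes. In KO they ran from -0.57 ± 0.55 for Chek2 to 0.54 ± 0.33 for Atr. There the GVBD libraries of Trp63 and Atr lay above GV (12.5% of tested genes did) and those of Chek1, Chek2 and Atm below (28.1%). On the TMM scale the same members separated apart from Atm, beside 22.5% of tested genes higher and 22.8% lower, and in WT 1 member, Brca2, lay lower, where 20.6% of genes did and 17.1% lay higher. The summed blood markers moved as well, from 94545 to 143777 in KO GV to 639 to 664 in KO GVBD, and their part in these separations was not tested.

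By a rule of likeness, the root mean square difference of centred log2 levels over the 12 libraries, the course of each member was set beside 10820 genes. Chek1 was closest to Spidr, a scaffold gene of homologous recombination, at 0.088, and to Cul1, a ubiquitin ligase subunit, at 0.104. Brca2 lay nearest Hivep1 (0.118), and Brca1 nearest Cbx1 (0.128) and Rapgef5 (0.130). For Trp63 these were Recql5, a DNA helicase gene (0.187), and Scin (0.202), for Trp53 Abhd10 (0.165) and Ror1 (0.175), for Atm Zfp672 (0.134) and Rgn (0.195), and for Atr Tpd52 (0.170) and Sfpq (0.172). Chek2, with its few counts, had no neighbour closer than St5 (0.309) and Ptgr2 (0.320).

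The other genes of the pathway were described from 5 lists of 87 genes in all, each by its count of calls. At GV, 0 of 82 tested genes were called between the genotypes by edgeR, beside 0.0977% of all 19452 genes. An unadjusted edgeR p below 0.05 was found for 28 of the 82, beside 17.9% of all genes. DESeq2 called 3 of the 82, beside 666 of all 19452 genes, and the list median was 0.38 beside 0.36 for all genes. At MII 0 of 81 were called by either tool, beside 0.803% of all genes in edgeR and 346 of 17566 in DESeq2. The median at MII was 0.13 beside 0.30. An unadjusted edgeR p under 0.05 was found there for 2 of 81, beside 7.32% of all genes. At GVBD edgeR called 1 of 82, beside 2.54% of all genes, and DESeq2 called 4, beside 901 of 19462 genes. The edgeR call was Mdm2, the ubiquitin ligase that degrades p53. It stood at 385 and 656 in WT and 2154 and 2472 in KO, a log2 fold change of 2.15 ± 0.54 (edgeR adjusted p = 0.0366). The call was lost in each of the 4 fits that left out a library, under TMM and median-of-ratios scaling, in the model of all 12 libraries and with a replicate block. It held in 4 of 12 alternatives, and the adjusted p over alternatives ran from 4.57e-04 to 0.259.

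Over all stages edgeR called 1 of 84, beside 1.26% of all genes. DESeq2 called 5 higher and 1 lower, beside 1356 of 22004 genes. The edgeR call was Lig4, the ligase of non-homologous end joining. Its levels were 437 and 459.7 at GV, 1244 and 406 at GVBD, then 538 and 375 at MII in WT. In KO they were 1076 and 959, 1978 and 1603 and 1791 and 994 at the same stages. Each stage thus had both KO libraries above both WT libraries, and the log2 fold change was 1.30 ± 0.29 (edgeR adjusted p = 0.0457). TMM scaling kept the call at 1.08, and 2 of the 12 fits without a library did, with adjusted p from 7.80e-04 to 0.133 over the alternatives.

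**Figure D5:**
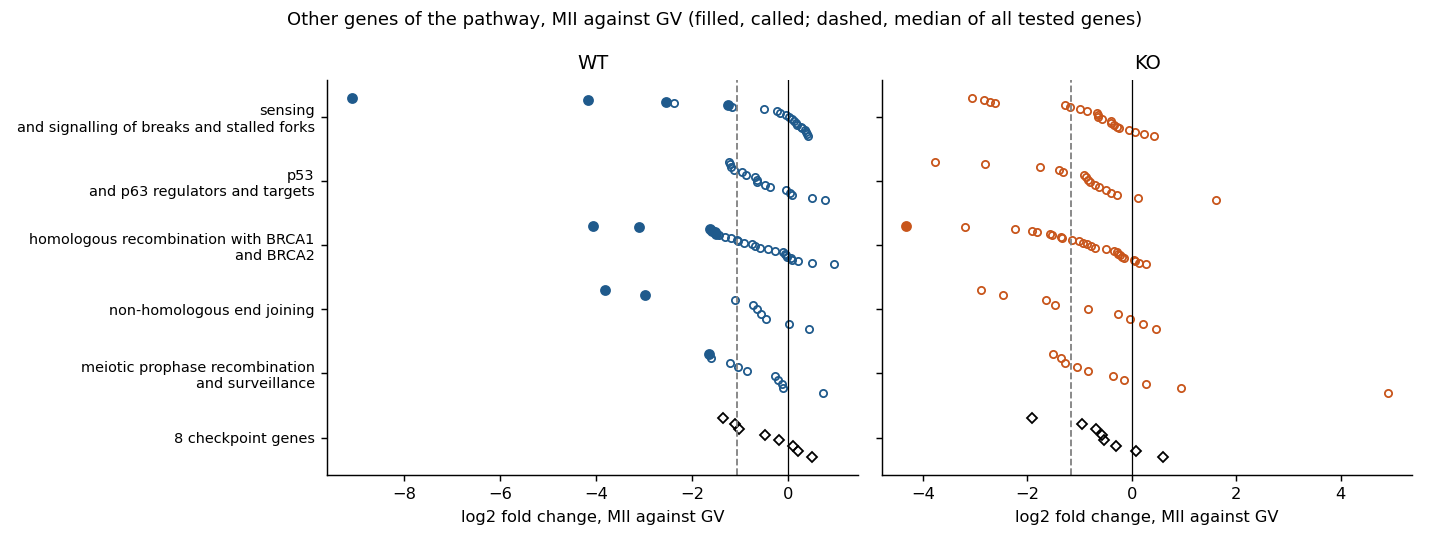
Log2 fold change of MII against GV for the other genes of the pathway, grouped by list, and for the 8 checkpoint genes (diamonds), in WT (left) and KO (right); filled points were called and the dashed line is the median of all tested genes. In WT 13 of 82 points are filled, all below 0, and the leftmost, Rad9a, is a fitted value for a gene with 0 counts in both MII libraries.

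From GV to MII in WT, 13 of the 82 tested pathway genes fell and 0 rose, where 30.5% of all tested genes fell, with a median of -0.53 beside -1.06 for all genes. The called genes were 4 of 21 in sensing (Rad9a, Rpa2, H2afx and Topbp1), 6 of 26 in homologous recombination (among them Xrcc3, Babam1, Brcc3 and Rad52), 2 of 9 in end joining (Nhej1 and Poll), 1 of 10 in meiotic prophase (Rnf212) and 0 of 16 among p53 and p63 regulators and targets. These calls were not equally firm. Rpa2, Babam1 and Nhej1 kept theirs under each of 12 alternatives, while Rad52 and Rnf212 did in 0 of the 4 fits without a library and Topbp1 in 1, and TMM scaling ended the calls of Rad52, Rnf212, Topbp1 and Brcc3. Rpa2, a subunit of the protein that coats single-stranded DNA, went from 2276 and 1863 to 152 and 79.5 (-4.17 ± 0.57, edgeR adjusted p = 1.08e-11). Nhej1, the end joining factor XLF, went from 4456 and 4221 to 357 and 258 (-3.82 ± 0.54, adjusted p = 5.73e-11). Rad9a, part of the clamp that activates ATR, had 34 and 51 counts at GV and 0 in both MII libraries, which against a floor of 3 counts per library is at least 29.2-fold lower.

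In KO the same comparison called 1 of 82 lower, beside 3.28% of all tested genes. This was Xrcc3, a gene of homologous recombination. It went from 375 and 258 to 17.0 and 14.3 in KO (-4.33 ± 0.90, edgeR adjusted p = 0.0413) and from 259 and 302 to 30.3 and 3.86 in WT (-4.07 ± 0.72, adjusted p = 3.13e-07). The KO call was lost without either KO GV library. Rpa2, Nhej1 and Rad9a were not called in KO, yet both MII libraries of each lay below both GV libraries, beside 61.4% of tested genes. In KO, Rpa2 went from 3334 and 3434 to 737 and 211, and Nhej1 from 5753 and 8519 to 2160 and 411. Rad9a went from 87.4 and 112 to 27.0 and 5.73. The list median in KO was -0.74 beside -1.17 for all genes. Under TMM scaling 14 of the 82 were higher and 7 lower in WT, beside 1593 and 3053 of all 18816 genes. In KO 2 were higher and 3 lower, beside 224 and 727 of 18777. At GVBD against GV, edgeR called 0 of 82 in WT and 0 of 83 in KO, beside 0.0511% and 0.22% of all genes. An unadjusted edgeR p below 0.05 was found for 4 and 4, beside 6.25% and 7.65% of all genes. DESeq2 called 0 in WT and 2 in KO, beside 383 of 19566 and 232 of 19064 genes. No pathway gene was called by edgeR or DESeq2 for a difference between the genotypes in the GV to MII change, beside 0 and 154 of 20807 genes. In edgeR 2 of 82 had an unadjusted p below 0.05, beside 5.75% of all genes.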

How the data were processed

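The deposited table holds raw counts, whole numbers that the authors did not normalize, for 56691 genes and 92 ERCC sequences. The study's methods name cutadapt, HISAT2 (mm10, uniquely mapped reads) and StringTie. The submitters' notes give HISAT2 2.0.4 and StringTie 1.3.4d, and the study gives other cutadapt and HISAT2 versions. The counting tool, its use of strand and the annotation release are not given in the sources used here. The labels describe a bulk mRNA extraction and the methods amplified cDNA of small pools. Keeping only unique alignments can lower the count of a gene that has a close copy.

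Each library was sized by its ERCC total, as in the study. Genes passing filterByExpr entered glmQLFit and glmQLFTest of edgeR 4.0.16 (R 4.3.3), fitted on the libraries of each of 9 comparisons, with two-sided tests and SE taken from the estimate and its F statistic. Lengths, positions (counted from 1) and sequences came from GENCODE M21. Likeness used log2 of scaled counts with a pseudocount of 1 and genes averaging at least 50 counts, of which the nearest 2 were named. Pathway genes called between genotypes (up to 6 a direction) and the 4 with the largest called change a direction between stages were named by rule. The other called genes of WT MII were named after their values were seen. Alternatives were TMM, median-of-ratios or abundant-ERCC scaling, a looser or stricter count filter, DESeq2 1.42.0, a model of all 12 libraries, no fold minimum, blocking by replicate number and dropping single libraries. Scripts were tested on simulated data. The members, lists and rules were chosen with earlier results of these data known. Some of the genes that these rules would name are not reported here.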

Additional observations from a re-analysis of the deposited data

How the results depend on the processing

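No member was called in any of the 9 comparisons under the main settings. With 2 libraries a group and 30 to 95 counts for Chek2, only large differences could be called, and counts of amplified cDNA are not independent molecules. The count of members called stayed at 0 under every alternative for the 4 genotype comparisons, the 2 comparisons of GVBD with GV and the interaction. For MII against GV in WT it became 2 under TMM scaling, 3 under median-of-ratios scaling, 2 with DESeq2, and 0 to 1 when 1 library was left out. For MII against GV in KO it became 1 under TMM scaling, 1 under median-of-ratios scaling, and 0 to 5 when 1 library was left out. The cause of these changes was not tested.

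The log2 fold changes that turned direction under TMM scaling were, for KO against WT at GV, Chek1 -0.20, Atm -0.30 and Atr -0.33, for KO against WT at GVBD, Trp53 -0.054 and Chek2 -0.19, for KO against WT at MII, Trp63 -0.058, Chek1 -0.16 and Brca1 -0.25, for KO against WT over all stages, Chek1 -0.21, Chek2 -0.13, Atm -0.18 and Brca1 -0.038. Under the same scaling the others were, for GVBD against GV in WT, Chek1 0.057 and Chek2 0.093, for MII against GV in WT, Trp63 0.78, Chek2 0.094 and Brca1 0.45, for MII against GV in KO, Trp63 0.48, Atm 0.12, Atr 0.48, Brca1 0.29 and Brca2 0.72, for the interaction of genotype and stage, Chek1 0.035. The log2 fold changes that turned direction under median-of-ratios scaling were, for KO against WT at GV, Chek1 -0.20, Atm -0.29 and Atr -0.33, for KO against WT at GVBD, Trp53 -0.042 and Chek2 -0.18, for KO against WT at MII, Trp63 -0.064, Chek1 -0.16 and Brca1 -0.26, for KO against WT over all stages, Chek1 -0.22, Chek2 -0.15, Atm -0.20 and Brca1 -0.062. Under the same scaling the others were, for GVBD against GV in WT, Chek1 0.029 and Chek2 0.069, for MII against GV in WT, Trp63 0.83, Chek2 0.14 and Brca1 0.50, for MII against GV in KO, Trp63 0.50, Atm 0.15, Atr 0.51, Brca1 0.31 and Brca2 0.75, for the interaction of genotype and stage, Chek1 0.11. All of these are under 1 in size, so none was called.

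When each library was left out in turn, log2 fold changes of members that turned direction in at least 1 such fit ranged as follows: for KO against WT at GV, Atr -0.14 to 0.17, for KO against WT at GVBD, Chek1 -0.38 to 0.18, Chek2 -0.051 to 0.30, Atm -0.60 to 0.36, Atr -0.26 to 1.56 and Brca1 -0.28 to 0.93, and for KO against WT at MII, Trp63 -0.40 to 0.81, Chek1 -0.26 to 0.39, Chek2 -0.65 to 0.33, Atm -0.093 to 0.84, Atr -0.056 to 0.98, Brca1 -0.76 to 0.68 and Brca2 -0.37 to 0.88. Further ranges were, for KO against WT over all stages, Chek1 -0.056 to 0.12 and Atm -0.078 to 0.28, for GVBD against GV in WT, Trp53 -0.043 to 0.099, Chek1 -0.31 to 0.25, Chek2 -0.21 to 0.20, Atm -0.67 to 0.29, Atr -0.99 to 0.82, Brca1 -0.72 to 0.48 and Brca2 -0.45 to 0.078, for GVBD against GV in KO, Trp53 -0.44 to 0.063 and Brca2 -0.64 to 0.0089, for MII against GV in WT, Trp63 -0.35 to 0.025, Chek1 -0.15 to 0.50 and Brca2 -0.47 to 0.51, for MII against GV in KO, Chek1 -0.12 to 0.26 and Brca2 -0.98 to 0.15, and for the interaction of genotype and stage, Trp63 -1.10 to 0.11, Trp53 -0.39 to 0.49, Chek1 -0.42 to 0.23, Atm -0.14 to 0.79, Atr -0.082 to 0.96, Brca1 -1.12 to 0.32 and Brca2 -1.09 to 0.16.

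Deviations of same-numbered libraries correlated at -0.22 to 0.12 over 13273 genes, so the replicate numbers were not taken as a pairing. With a replicate block no member was called in any comparison, Brca1 turned to -0.014 for KO against WT at MII and Atr to -0.081 for GVBD against GV in WT, and the calls over all genes went from 19 to 0 at GV, 494 to 214 at GVBD, 141 to 4 at MII, 278 to 673 over all stages, 10 to 182 for GVBD against GV in WT, 42 to 16 in KO, and 616 to 2462 for MII against GV in KO. With the numbers crossed, an alternative added after seeing the data, 218 genes were called at GV and 0 at MII, no member was, and Brca1 at MII stood at -0.014.

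Counts of calls over all genes moved with the settings too. Over the alternatives they were 0 to 666 for KO against WT at GV (main 19), 5 to 953 for KO against WT at GVBD (main 494), 0 to 542 for KO against WT at MII (main 141), 63 to 1356 for KO against WT over all stages (main 278) and 0 to 629 for GVBD against GV in WT (main 10). For the others they were 0 to 888 for GVBD against GV in KO (main 42), 2853 to 5821 for MII against GV in WT (main 5821), 39 to 11075 for MII against GV in KO (main 616) and 0 to 346 for the interaction of genotype and stage (main 0). Pathway calls for MII against GV were 13 in WT and 1 in KO, and across alternatives 5 to 26 and 0 to 52; for KO against WT they were 0 to 3 at GV (main 0), 0 to 4 at GVBD (main 1), 0 to 1 at MII (main 0) and 0 to 6 over all stages (main 1). The order of levels per kb was the same under TMM scaling, and by merged exon length, added after seeing the data, Atm took place 7 and Chek2 place 8. The counts of members whose libraries did not overlap on the TMM scale were likewise added after seeing the data.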
